A study of Mus musculus with 10 samples.

Results

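Gas6, Pros1, Axl, Tyro3 and Mertk encode the ligands and receptors of the TAM system, named after the receptor tyrosine kinases TYRO3, AXL and MERTK. They were taken as a gene family, by symbol, and were selected on their levels in the 3 groups of these data. They are 5 of the 22731 genes counted in bulk RNA sequencing of mouse fibroblasts. All 5 passed the filter on low counts, which left 16344 genes. The fibroblasts were cultured alone (monoculture, 4 libraries), with wild-type group 2 innate lymphoid cells (WT coculture, 3 libraries) or with such cells that lack interleukin 13 (IL13KO coculture, 3 libraries). Group 2 innate lymphoid cells (ILC2s) are tissue lymphocytes without antigen receptors that secrete type 2 cytokines, among them interleukin 13. All 10 libraries carry the genotype label C57B6. The series title names the pancreas. The fibroblasts had been sorted as live cells positive for podoplanin and PDGFRα and negative for CD45, Epcam and CD31, and the ILC2s as KLRG1-positive, lineage-negative leukocytes. After coculture the fibroblasts were sorted once more. The text on that second sort gives a CD45-positive gate, which does not match the first. The labels give no age, culture time, animal or day for a library, so p-values measure the spread between these libraries, which may be technical.

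TAM receptors sit on the cell surface and carry a cytoplasmic tyrosine kinase. GAS6 and protein S, the product of Pros1, bind phosphatidylserine on dying cells and activated platelets through a domain that needs vitamin K-dependent carboxylation, and so bridge such membranes to the receptors. GAS6 binds all the TAM receptors and binds AXL most tightly, whereas protein S acts on TYRO3 and MERTK. The system is known for the uptake of apoptotic cells by macrophages and for damping innate inflammation, and Gas6 was first isolated as a transcript of growth-arrested fibroblasts.

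The total count per library ran from 10710410 to 22087459, and each monoculture was shallower than each coculture. Il13 had 0 reads in every monoculture and IL13KO coculture, and 30, 120 and 121 reads in WT cocultures 1, 3 and 4, as the count table numbers them. The 10 fibroblast markers examined had reads in every library, and summed to 7608 to 10610 CPM alone, 12870 to 17560 CPM with WT ILC2s and 23210 to 28990 CPM with IL13KO ILC2s, with no overlap between groups. Means alone, with WT and with IL13KO ILC2s were 1070, 6756 and 11570 CPM for Col1a1 and 2125, 3421 and 7402 CPM for Col3a1. The markers did not move together. Dcn had 2532, 369.4 and 1650 CPM and Lum 634.6, 49.05 and 234.5 CPM, both lower in the cocultures than alone. The part of the fibroblast markers in the levels of the TAM genes was not tested. Ptprc, which encodes CD45, had 0 reads in the monocultures, 6, 3 and 9 in the WT cocultures and 0, 1 and 0 in the IL13KO cocultures.

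The genes lie on 4 chromosomes of the build GRCm38. Gas6 (ENSMUSG00000031451) occupies chr8:13465374-13494490 on the minus strand, and Pros1 (ENSMUSG00000022912) chr16:62854307-62929346 on the plus strand. Axl (ENSMUSG00000002602) lies at chr7:25757273-25788705 on the minus strand. Tyro3 (ENSMUSG00000027298) at chr2:119797733-119818104 and Mertk (ENSMUSG00000014361) at chr2:128698956-128802894 are both on the plus strand of chromosome 2. The last exon bases of Gas6 overlap those of Tmem255b on the opposite strand, over 1.33% of the exon bases of Gas6. The other genes of the family share no exon bases with another gene.

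The sequences just upstream of Gas6 and Axl are shown because these members had the widest called differences between groups. Each is the window of 250 bases before the RefSeq start site on GRCm38.p6, read 5′ to 3′ on the strand of the gene. Capitals mark GGGCGG on either strand, the core of boxes bound by Sp and KLF factors.
Gas6, minus strand, chr8:13494536-13494785: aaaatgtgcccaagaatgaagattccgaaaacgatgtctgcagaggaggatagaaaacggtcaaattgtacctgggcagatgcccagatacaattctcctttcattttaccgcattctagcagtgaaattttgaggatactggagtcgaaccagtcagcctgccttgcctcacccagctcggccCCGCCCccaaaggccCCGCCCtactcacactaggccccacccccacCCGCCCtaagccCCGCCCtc
Axl, minus strand, chr7:25788734-25788983: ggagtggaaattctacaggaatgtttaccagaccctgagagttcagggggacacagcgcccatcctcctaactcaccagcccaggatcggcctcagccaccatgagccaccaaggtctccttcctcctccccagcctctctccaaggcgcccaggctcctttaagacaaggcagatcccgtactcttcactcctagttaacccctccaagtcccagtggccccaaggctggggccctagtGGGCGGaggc
The Gas6 window holds 4 matches, all near the start, and the Axl window holds 1, next to the start. At least 1 match was found in 32.7% of the 32851 mouse windows of this length, and at least 4 in 4.09%. The windows of Pros1, Tyro3 and Mertk hold 5, 3 and 3 matches. The Tyro3 window, chr2:119799264-119799513, lies inside the gene span given above, which starts at 119797733. It therefore precedes a RefSeq start within the gene, and its matches and missing letters concern that start. TTCNNNNGAA, a spacing bound by STAT6, the factor downstream of interleukin 13, is in 5.85% of all windows and in that of Pros1 (1 match), but not in the windows of the other 4 genes. The related TTCNNNGAA is in 7.02% of windows and again among these only in that of Pros1, with 1 match. GGAATG, the core bound by TEAD factors, is in 12.6% of windows and once in that of Axl. The AP-1 letters TGANTCA, the hypoxia response core ACGTG and the TATA box TATAAA are in 6.75%, 16.6% and 12.4% of windows, the cAMP response element is in 1.55%, and all these are in 0 of the 5 members' windows. Both strands were searched, and no match says only that these letters are not in this window.

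Gas6, the bridging ligand with the highest affinity for AXL, was highest with IL13KO ILC2s and lowest with WT ILC2s. Its level in CPM (reads scaled to library size, normalised by TMM) was 321.7, 406.1, 589.3 and 497.6 in the 4 monocultures. It was 301.4, 235.6 and 230.2 in the WT cocultures and 1019, 1189 and 1055 in the IL13KO cocultures. No 2 groups overlapped, although monoculture 1 lay close to WT coculture 1. The group means were 453.7 ± 115.5 (SD, n = 4), 255.8 ± 39.6 (SD, n = 3) and 1088 ± 89.8 CPM (SD, n = 3). The WT and IL13KO cocultures differed 4.25-fold, a log2 difference of -2.09 ± 0.19 (SE; edgeR quasi-likelihood test, adjusted p = 9.99e-06), and 1.68% of the genes tested had a larger fall. Against the monocultures, Gas6 was lower in the WT cocultures, with a log2 difference of -0.83 ± 0.18 (edgeR adjusted p = 0.00118), and higher in the IL13KO cocultures, by 1.26 ± 0.17 (edgeR adjusted p = 5.19e-05).

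Counts can follow the GC content and length of a transcript differently in each library, and the longest Gas6 transcript is 56.6% GC. After that trend was removed from each library (the GC and length correction), the log2 difference of Gas6 was -1.72 in WT cocultures (edgeR adjusted p = 1.68e-08) and 0.24 in IL13KO cocultures, where the call ended (edgeR adjusted p = 0.0607). Between the cocultures it was -1.96 after the correction (edgeR adjusted p = 6.73e-08). The fall against the IL13KO cocultures therefore had nearly the same size either way, whereas the rise over the monocultures did not. The part of GC content or transcript length in these differences was not tested.

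Pros1, which encodes the anticoagulant and TAM ligand protein S, moved over a narrower range. Its level was 1501, 1302, 1033 and 1345 CPM alone, 921.4, 850.1 and 883.5 CPM with WT ILC2s, and 1417, 1207 and 1087 CPM in IL13KO cocultures. The WT cocultures lay below all other libraries, and the monocultures and IL13KO cocultures overlapped. The means were 1295 ± 194.6 (SD, n = 4), 885 ± 35.7 (SD, n = 3) and 1237 ± 166.9 CPM (SD, n = 3). Pros1 was 1.46-fold lower with WT ILC2s than alone, a log2 difference of -0.55 ± 0.12 (edgeR adjusted p = 0.00192), or -0.35 after the GC and length correction (edgeR adjusted p = 0.0122). With IL13KO ILC2s the log2 difference from monoculture was -0.07 ± 0.12, with a 95% interval of -0.33 to 0.20 (edgeR adjusted p = 0.667). Between the cocultures it was -0.48 ± 0.13 (edgeR adjusted p = 0.0187). That last call ended when WT coculture 3 or 4 or IL13KO coculture 1 or 2 was left out, with log2 differences of -0.44, -0.48, -0.37 and -0.50 and edgeR adjusted p-values of 0.0848, 0.0584, 0.0968 and 0.0502.

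**Figure D1:**
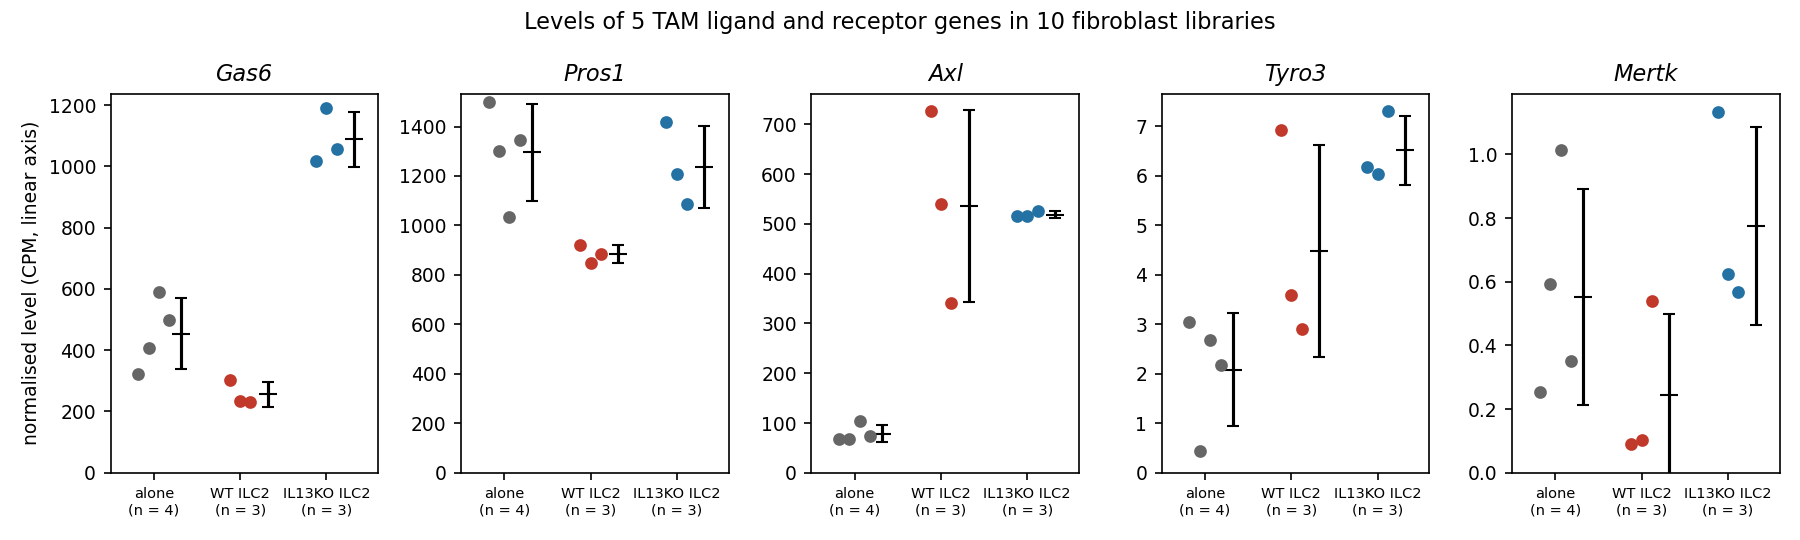
Normalised level (CPM, linear axis from 0) of each of the 5 genes in each of the 10 libraries, 1 point per library, with the mean and SD of the group beside the points (the lower arm of the WT bar of Mertk is cut at 0). Gas6 is highest in the IL13KO cocultures at 1019 to 1189 CPM, and Axl lies between 341.8 and 727.2 CPM in all 6 cocultures against at most 103.3 CPM alone.

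Axl, the receptor for GAS6 that prevails on fibroblasts and other mesenchymal cells, was higher in every coculture than in any monoculture. It stood at 68.1, 67.5, 103.3 and 72.9 CPM alone, at 727.2, 539.2 and 341.8 CPM with WT ILC2s and at 515.2, 515.2 and 526.5 CPM with IL13KO ILC2s. The means were 77.9 ± 17.0 (SD, n = 4), 536.1 ± 192.7 (SD, n = 3) and 519 ± 6.55 CPM (SD, n = 3). The WT cocultures spanned 2.13-fold and enclosed the IL13KO cocultures, which lay within 1.02-fold of each other. Axl rose 6.88-fold with WT ILC2s, a log2 difference of 2.78 ± 0.22 (SE; edgeR adjusted p = 3.37e-07), and 6.66-fold with IL13KO ILC2s, a log2 difference of 2.74 ± 0.21 (edgeR adjusted p = 1.01e-06). A larger rise was found in 4.82% and 3.95% of the genes tested. The 2 comparisons share the monocultures. After the GC and length correction the log2 differences were smaller, at 1.69 and 1.51 (edgeR adjusted p = 4.45e-07 and 3.62e-06). WT and IL13KO cocultures differed by 0.05 ± 0.22 on the log2 scale (edgeR adjusted p = 0.906). The 95% interval was -0.43 to 0.53, so a difference of any size within it, in either direction, remains possible.

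Tyro3, a receptor for protein S and GAS6 that is best known from the nervous system, was sparsely read. It had 36, 6, 29 and 31 reads in the monocultures, 154, 70 and 54 in the WT cocultures and 109, 106 and 129 in the IL13KO cocultures, or 3.04, 0.444, 2.67 and 2.18 CPM, 6.91, 3.59 and 2.91 CPM, and 6.18, 6.03 and 7.31 CPM. The IL13KO cocultures lay above every monoculture, and WT coculture 4 fell within the range of the monocultures. In IL13KO coculture the log2 difference from monoculture was 1.66 ± 0.44 (SE; edgeR adjusted p = 0.00579), and only 0.21 after the GC and length correction (edgeR adjusted p = 0.702). In WT coculture it was 1.12 ± 0.44 (edgeR adjusted p = 0.0404), and turned to -0.17 after the correction (edgeR adjusted p = 0.752). That call also ended without monoculture 2 or 4, WT coculture 1 or 3 or any 1 of the IL13KO cocultures, at edgeR adjusted p-values of 0.0526 to 0.253. The cocultures differed by -0.53 ± 0.43 on the log2 scale, with a 95% interval of -1.47 to 0.41 (edgeR adjusted p = 0.415).

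Mertk, the receptor by which macrophages take up apoptotic cells, was near the limit of detection. Its reads numbered 3, 8, 11 and 5 alone, 2, 2 and 10 in the WT cocultures, and 20, 11 and 10 with IL13KO ILC2s. A level of 3 reads is 0.135 to 0.277 CPM in these libraries, and WT cocultures 1 and 3 were below it. The mean level was 0.553 ± 0.339 (SD, n = 4), 0.244 ± 0.256 (SD, n = 3) and 0.775 ± 0.312 CPM (SD, n = 3), and the groups overlapped except that the WT cocultures were below the IL13KO cocultures. None of the log2 differences passed the threshold: they were -1.18 ± 0.70, 0.51 ± 0.61 and -1.68 ± 0.69 (SE) for WT against monoculture, IL13KO against monoculture and WT against IL13KO (edgeR adjusted p = 0.161, 0.495 and 0.0981). These values depended on single libraries. Without WT coculture 4 the first and the last were -2.41 and -2.92 (edgeR adjusted p = 0.0229 and 0.0294). The first was -0.75 without WT coculture 1 and -0.76 without monoculture 3, and the second 0.14 without IL13KO coculture 1 and 0.93 without monoculture 3. After thinning to equal depth the 3 were -0.23, 0.82 and -1.06.

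In all, 2 of the 5 members were called higher and 2 lower in WT coculture against monoculture, where 62.5% of the genes tested were called, 32.8% higher and 29.7% lower. In IL13KO coculture against monoculture 3 of 5 were called higher and 0 lower, beside 57.4% of all genes, 30.1% higher and 27.3% lower. Between the cocultures 2 of 5 were called, both lower with WT ILC2s, beside 23.3% of all genes, 11.6% higher and 11.7% lower. The family was selected on its levels in these groups, so its differences and adjusted p-values are a description, and nothing is read from these counts. In bulk RNA, fewer cells of a type and less RNA per cell cannot be told apart.

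**Figure D2:**
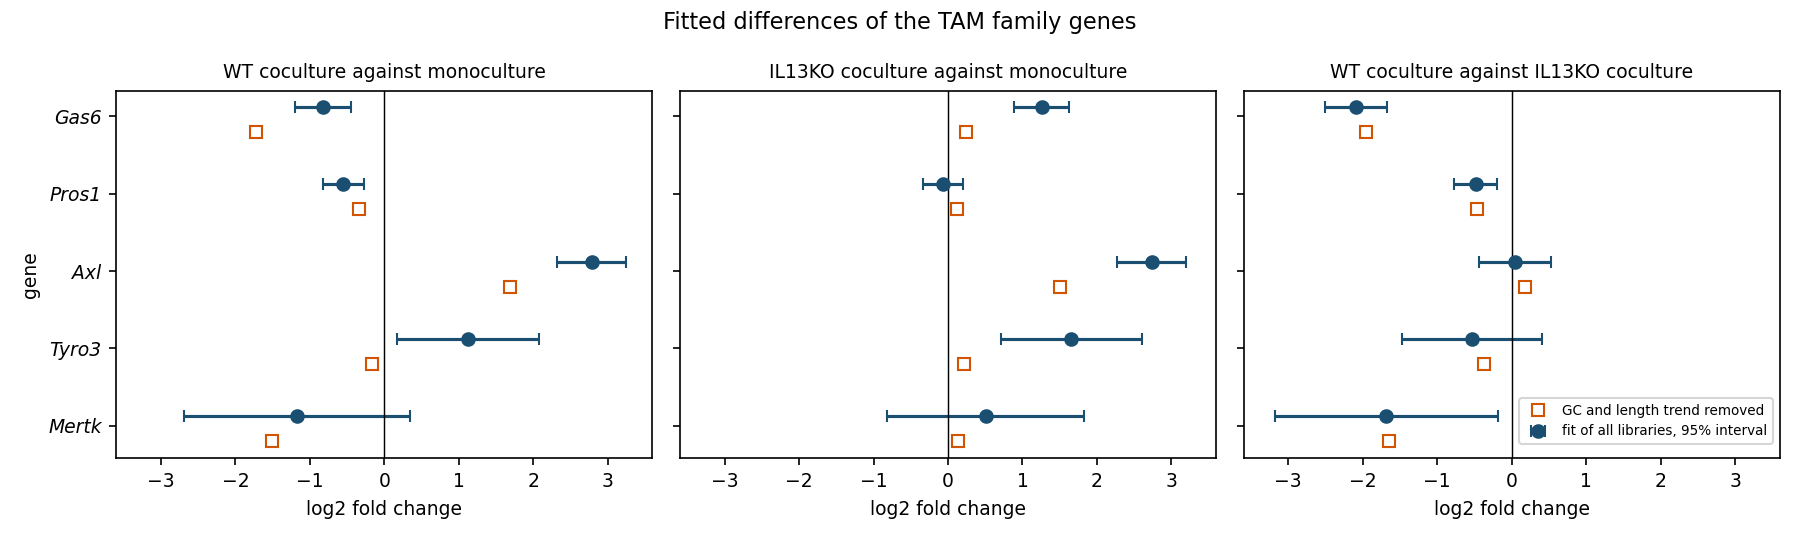
Log2 fold change of the 5 genes in each of the 3 comparisons, as fitted over all 10 libraries (filled circles with 95% intervals) and after the GC and length correction (open squares). For Gas6 and Axl against monoculture the estimates lie apart (1.26 and 0.24 for Gas6 with IL13KO ILC2s), whereas for Gas6 between the cocultures they are -2.09 and -1.96.

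Levels of different genes were compared per kilobase of exon, without the GC and length correction. In the monocultures Pros1 came first with 316.8 ± 47.6 CPM per kilobase (SD, n = 4), followed by Gas6 with 178 ± 45.3, Axl with 15.5 ± 3.39, Tyro3 with 0.336 ± 0.185 and Mertk with 0.128 ± 0.078. The ranges of Tyro3 and Mertk overlapped, whereas the other neighbours in that order did not. In the WT cocultures Pros1 stood at 216.5 ± 8.72 CPM per kilobase (SD, n = 3), Axl at 106.5 ± 38.3 and Gas6 at 100.4 ± 15.6, and the last 2 overlapped. In the IL13KO cocultures Gas6 led with 426.8 ± 35.2 CPM per kilobase (SD, n = 3), before Pros1 with 302.7 ± 40.8 and Axl with 103.1 ± 1.30. Tyro3 was at 0.721 ± 0.346 and 1.05 ± 0.114 CPM per kilobase in the WT and IL13KO cocultures, and Mertk at 0.0562 ± 0.0590 and 0.179 ± 0.072.

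Axl therefore made up nearly all receptor transcripts of the family, 96.1% to 98.5% alone, 99.1% to 99.4% with WT ILC2s and 98.8% to 98.9% in IL13KO cocultures. Gas6 made up 25.6%, 33.3%, 47.8% and 37.3% of the ligand transcripts (Gas6 and Pros1, per kilobase) in the monocultures. Its share was 34.4%, 30.8% and 29.5% in the WT cocultures, within the range of the monocultures, and 53.6%, 61.3% and 60.9% in the IL13KO cocultures, above all others. The IL13KO cocultures were thus the libraries in which Gas6 exceeded Pros1, without the GC and length correction.

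The ratio of ligand to receptor transcripts was lower in both cocultures than alone. It was 35.1, 35.1, 22.9 and 35.1 in the monocultures, 2.36, 2.79 and 4.47 in the WT cocultures and 7.20, 7.36 and 6.42 in the IL13KO cocultures, and no 2 groups overlapped. The summed receptor level moved from 13.6 to 21.2 CPM per kilobase alone to 68.5 to 145.6 with WT ILC2s and 103.5 to 105.9 with IL13KO ILC2s. The summed ligand level was 478 to 524.3 CPM per kilobase alone, 300.4 to 343.7 with WT ILC2s and 679.9 to 762 with IL13KO ILC2s. The WT and IL13KO cocultures thus overlapped in summed receptor level and did not overlap in summed ligand level. Shares, sums and ratios were not recomputed after the GC and length correction. That correction took the log2 rise of Gas6 with IL13KO ILC2s from 1.26 to 0.24, where the call ended. The rises of Axl with WT and IL13KO ILC2s went from 2.78 and 2.74 to 1.69 and 1.51. The sizes given here may therefore depend on the correction, which was not tested.

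**Figure D3:**
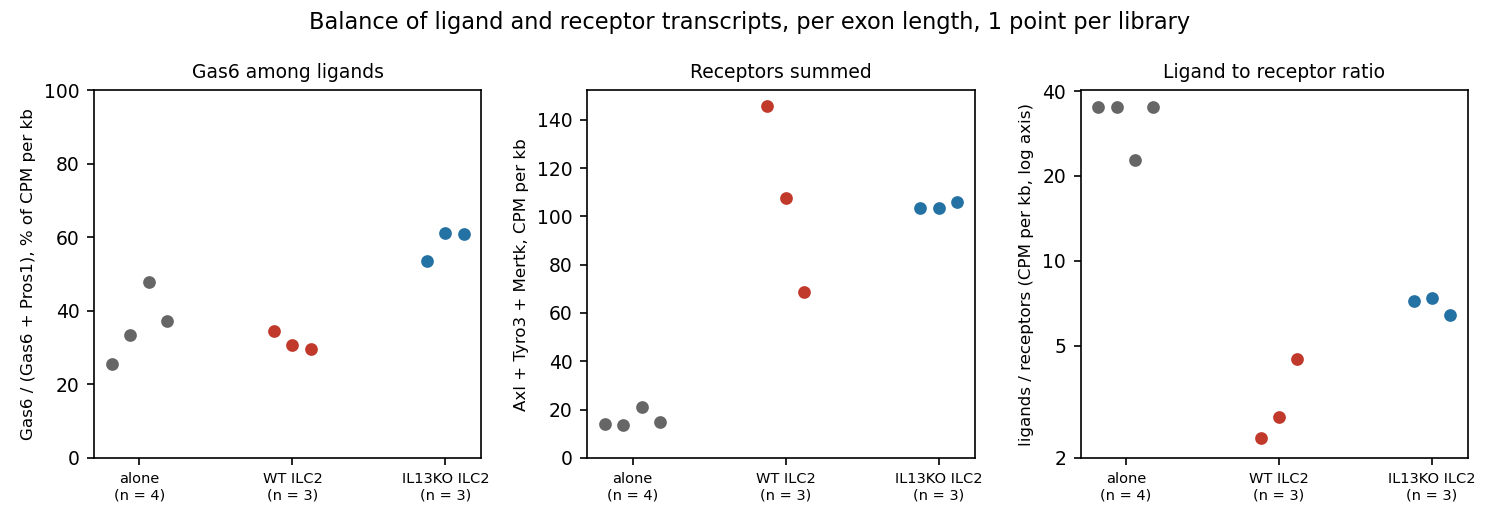
Gas6 as a percentage of Gas6 plus Pros1, the summed level of Axl, Tyro3 and Mertk, and the ratio of ligand to receptor transcripts (log axis), all from CPM per kilobase of exon, with 1 point per library. Gas6 is 53.6% to 61.3% of ligand transcripts in the IL13KO cocultures and at most 47.8% elsewhere, and the ratio is lowest in the WT cocultures (2.36 to 4.47). The GC and length correction is not applied here.

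Among the receptor tyrosine kinases Axl was one of the most abundant. Of 46 such genes in the table it ranked 4 by CPM per kilobase in monoculture, 2 in WT coculture and 1 in IL13KO coculture, whereas Tyro3 ranked 26, 26 and 24 and Mertk 32, 37 and 35. Pdgfra, the PDGF receptor by which the cells were sorted, stood at 37.1 ± 0.481, 63.2 ± 10.01 and 74.5 ± 8.64 CPM per kilobase (SD, n = 4, 3 and 3). Pdgfrb, the second PDGF receptor, had a log2 difference between WT and IL13KO coculture of -1.70 ± 0.27, and Ptk7, a pseudokinase of the Wnt pathway, one of -1.14 ± 0.24 (SE; edgeR adjusted p = 0.000605 and 0.00398).

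Of the 34 other receptor tyrosine kinases tested, 20 rose and 7 fell in WT coculture against monoculture, beside 32.8% and 29.7% of all genes. In IL13KO coculture 24 rose and 2 fell (1 to 2 without 1 library), beside 30.1% and 27.3% of all genes. The median log2 differences of these kinases were 0.75 and 1.41, beside 0.015 and 0.0017 over all genes tested. After the GC and length correction these counts became 12 up and 13 down, and 14 up and 5 down. Over all 16344 genes tested, 4123 were then higher and 5526 lower in WT coculture, and 3027 and 4990 in IL13KO coculture. Falls in WT coculture thus outnumbered rises after the correction among these kinases and over all genes alike, and nothing is read from that. Between the cocultures 3 were higher and 15 lower with WT ILC2s, beside 11.6% and 11.7% of all genes. The median was -0.56 beside -0.0042 over all genes, and the counts of 3 and 15 were the same after the correction.

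**Figure D4:**
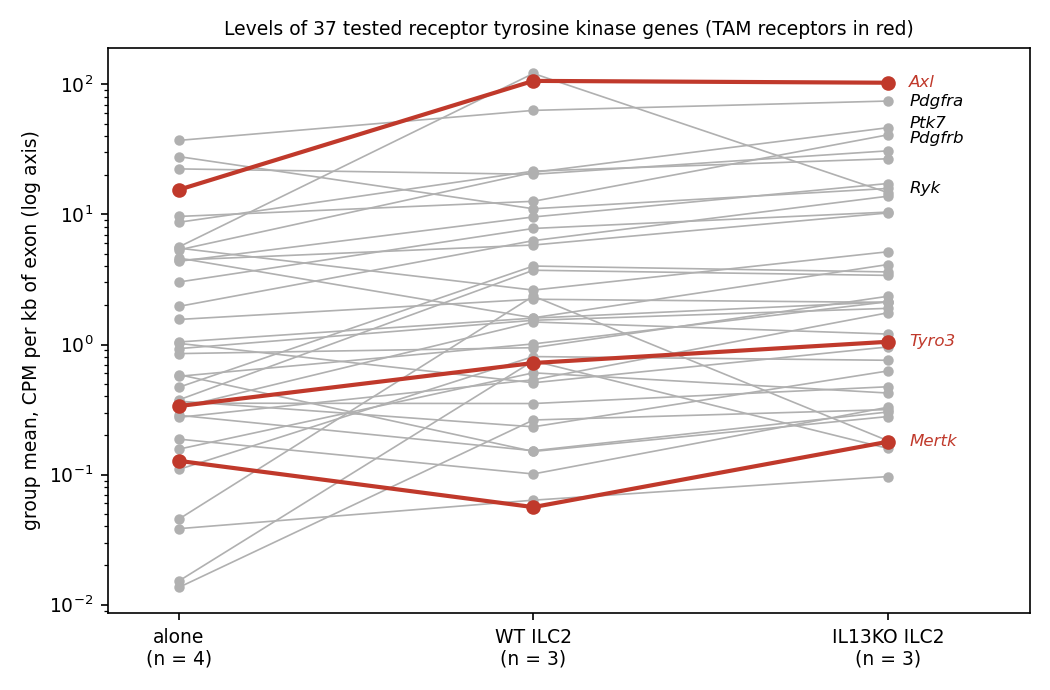
Mean level (CPM per kilobase of exon, log axis) of the 37 receptor tyrosine kinase genes tested, in each group, with 1 line per gene and the TAM receptors in red. Axl moves from 15.5 to 106.5 and 103.1 CPM per kilobase, while Tyro3 and Mertk stay at or below 1.05.

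Genes around the vitamin K-dependent carboxylation of the ligands come first among the lists of the pathway. For these lists, ranges of counts are over fits that leave out 1 library. Over all genes tested, 32.8% rose and 29.7% fell in WT coculture, and 30.1% rose and 27.3% fell in IL13KO coculture. Between the cocultures 11.6% were higher and 11.7% lower with WT ILC2s. Every list count below from the fit of all libraries is to be read beside these shares, and nothing is read from a count near them. After the GC and length correction, of 16344 genes, 4123 rose and 5526 fell in WT coculture, and 3027 rose and 4990 fell in IL13KO coculture. Between the cocultures 2352 were then higher and 1968 lower with WT ILC2s. List counts after the correction are to be read beside these, since the correction moved all genes towards falls against monoculture. Of 7 genes for vitamin K-dependent carboxylation, 4 rose and 1 fell in each coculture (fell 0 to 1), where 32.8% and 30.1% of all genes tested were called higher, and after the GC and length correction 3 rose and 0 fell in each. Ggcx, the carboxylase that modifies GAS6 and protein S, stood at 66.8 ± 10.5 CPM alone (SD, n = 4) and at 147.7 ± 19.2 and 140.8 ± 8.37 CPM with WT and IL13KO ILC2s (SD, n = 3 each). Its log2 differences from monoculture were 1.14 ± 0.13 and 1.07 ± 0.13 (SE; edgeR adjusted p = 7.73e-06 and 2.19e-05). Calu, a binding partner of the carboxylase in the endoplasmic reticulum, rose by 0.93 ± 0.09 and 0.59 ± 0.09 on the log2 scale (SE; edgeR adjusted p = 2.01e-06 and 0.000122). Vkorc1, the vitamin K epoxide reductase, had 147.6 ± 18.8, 146.6 ± 21.96 and 125.7 ± 3.83 CPM (SD) and was not called in any comparison. Between the cocultures 1 gene of this list was higher (0 to 1) and 0 lower with WT ILC2s. Carboxylation itself was not measured, and a rise of a gene in this list does not mean more of it.

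Other proteins with a carboxylated Gla domain include clotting factors and matrix proteins. Of 6 tested, 1 rose (1 to 2) and 4 fell (3 to 6) in WT coculture, 0 rose (0 to 1) and 2 fell (2 to 3) in IL13KO coculture, where 29.7% and 27.3% of all genes tested were called lower, and 1 was higher and 3 lower with WT than with IL13KO ILC2s. The last count of 3 became 1 without WT coculture 1 or IL13KO coculture 2. Mgp, an inhibitor of calcification, fell from 65.4 ± 4.79 CPM (SD, n = 4) to 13.0 ± 2.26 and 20.5 ± 5.28 CPM (SD, n = 3 each), by log2 differences of -2.34 ± 0.18 and -1.67 ± 0.17 (SE; edgeR adjusted p = 3.07e-07 and 6.93e-06). Prrg3, a membrane protein with a Gla domain, had 17.8 ± 1.94 CPM alone (SD, n = 4), 6.82 ± 1.12 CPM with WT ILC2s and 21.04 ± 3.25 CPM with IL13KO ILC2s (SD, n = 3 each), a log2 difference of -1.62 ± 0.18 between the cocultures (SE; edgeR adjusted p = 4.25e-05).

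AXL is cut from the cell surface by the proteases ADAM10 and ADAM17. Of 10 genes for these proteases and their regulators, 5 rose and 2 fell in WT coculture, 6 rose and 0 fell in IL13KO coculture, and 2 were higher and 2 lower in WT than in IL13KO coculture. The falls in WT coculture were 0 without monoculture 3 or 4, WT coculture 3 or 4 or IL13KO coculture 2. Between the cocultures the higher count was 0 without WT coculture 1 or IL13KO coculture 2 or 3, and the lower count 0 without WT coculture 3. Adam10 stood at 125.8 ± 19.6 CPM alone (SD, n = 4), 229.1 ± 24.4 CPM with WT ILC2s and 194 ± 12.9 CPM with IL13KO ILC2s (SD, n = 3 each), rises of 0.86 ± 0.12 and 0.62 ± 0.12 on the log2 scale (SE; edgeR adjusted p = 4.58e-05 and 0.000758). Adam17 had 65.7 ± 10.3, 58.5 ± 7.76 and 63.7 ± 3.63 CPM (SD) and was not called. Rhbdf1, which carries ADAM17 to the surface, rose from 4.35 ± 1.02 CPM (SD, n = 4) to 32.3 ± 4.84 and 36.9 ± 3.62 CPM (SD, n = 3 each), by 2.89 ± 0.19 and 3.08 ± 0.19 (SE) on the log2 scale, or 1.39 and 1.34 after the GC and length correction.

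The exposure of phosphatidylserine, the lipid to which the ligands attach, is set by scramblases and flippases. Of 10 such genes tested, 3 rose and 3 fell in WT coculture, 3 rose and 2 fell in IL13KO coculture, and 0 were higher and 2 lower in WT than in IL13KO coculture. The last 2 counts of 2 each ranged from 1 to 3 without 1 library. Over all genes 32.8% rose and 29.7% fell in WT coculture, and 30.1% and 27.3% in IL13KO coculture. The counts against monoculture are near these shares, and nothing is read from them. Ano6, a calcium-activated scramblase, rose from 38.5 ± 16.9 CPM (SD, n = 4) to 264.5 ± 48.7 and 240.8 ± 6.88 CPM (SD, n = 3 each), by 2.78 ± 0.25 and 2.65 ± 0.25 on the log2 scale (SE; edgeR adjusted p = 1.11e-06 and 3.62e-06). After the correction these were 2.14 and 1.92. Plscr4, of the phospholipid scramblase family, fell by 1.61 ± 0.12 and 0.80 ± 0.12 on the log2 scale. Xkr8, the scramblase cut by caspases, had 9.83 ± 3.42, 11.3 ± 2.48 and 13.7 ± 1.34 CPM (SD) and was not called.

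The receptors and bridges that serve the uptake of dying cells beside the TAM system were also examined. Of 13 tested, 8 rose and 3 fell in WT coculture and 9 rose and 2 fell in IL13KO coculture. After the GC and length correction 6 rose and 4 fell in the first and 4 rose and 4 fell in the second. Mfge8, a bridge between phosphatidylserine and integrins, was lower in WT than in IL13KO coculture, as Gas6 was, at 246.5 ± 44.7 against 543.8 ± 73.3 CPM (SD, n = 3 each), a log2 difference of -1.14 ± 0.23 (SE; edgeR adjusted p = 0.00326). Lgals3, which encodes the lectin galectin-3 and has been described as a MERTK ligand, went the opposite way, at 463.8 ± 45.7 against 212.8 ± 14.7 CPM (SD, n = 3 each), a log2 difference of 1.12 ± 0.14 (edgeR adjusted p = 0.00013). Scarb1, a scavenger receptor for lipoproteins, had 4.77 ± 1.40 CPM alone (SD, n = 4), 70.5 ± 14.9 CPM with WT ILC2s and 34.9 ± 4.15 CPM with IL13KO ILC2s (SD, n = 3 each). Calr, a chaperone that marks dying cells at their surface, was higher in WT than in IL13KO coculture by 0.73 ± 0.11 (SE; edgeR adjusted p = 0.000374). Between the cocultures 3 genes of the list were higher and 2 lower (1 to 3) with WT ILC2s, or 6 and 2 after the correction.

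Of 13 genes of the engulfment machinery, 9 rose and 2 fell (1 to 2) in WT coculture and 8 rose and 2 fell in IL13KO coculture, the latter becoming 5 and 3 after the correction. Elmo2, which acts with DOCK proteins to activate RAC1, rose from 14.4 ± 2.27 CPM (SD, n = 4) to 75.4 ± 9.74 and 93.01 ± 4.48 CPM (SD, n = 3 each), by log2 differences of 2.39 ± 0.13 and 2.695 ± 0.14 (SE), or 1.32 and 1.47 after the correction. Rac1 itself, the GTPase of phagocytic cup formation, was higher in WT than in IL13KO coculture by 0.63 ± 0.09 (SE; edgeR adjusted p = 0.000222). Map1lc3b, the LC3 protein of autophagy and of LC3-associated phagocytosis, fell from 1609 ± 212.5 CPM (SD, n = 4) to 561.3 ± 55.9 and 862.1 ± 103.3 CPM (SD, n = 3 each), by log2 differences of -1.52 ± 0.12 and -0.90 ± 0.12 (SE) that were -2.27 and -1.74 after the correction. Between the cocultures 2 genes of the list were higher and 1 lower with WT ILC2s, and the 2 became 4 after the correction and 4 without monoculture 3, but 1 without any 1 of the 6 cocultures. The lower count was 1 to 2.

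Downstream of the receptors, 21 adaptors and kinases were tested. In WT coculture 12 rose and 6 fell, and in IL13KO coculture 12 rose and 4 fell, but 3 rose and 9 fell and 5 rose and 7 fell after the GC and length correction. The fall of 4 became 2 without IL13KO coculture 1 or 2. The subunits of PI3-kinase, the lipid kinase that TAM receptors recruit, moved in different directions. Pik3r1, the regulatory subunit p85α, fell from 34.96 ± 3.44 CPM (SD, n = 4) to 17 ± 1.80 CPM with WT ILC2s (SD, n = 3), by 1.04 ± 0.13 on the log2 scale (SE; edgeR adjusted p = 1.61e-05), and had 29.96 ± 2.19 CPM with IL13KO ILC2s (SD, n = 3). Pik3r2, the regulatory subunit p85β, rose from 4.34 ± 2.697 CPM (SD, n = 4) to 34.4 ± 6.83 and 48.1 ± 5.40 CPM (SD, n = 3 each), by log2 differences of 3.02 ± 0.31 and 3.501 ± 0.31 (SE) that were 1.40 and 1.6 after the correction. Cblb, a ubiquitin ligase that ends receptor signalling, rose by 1.39 ± 0.13 and 1.94 ± 0.13 on the log2 scale (SE; edgeR adjusted p = 1.23e-06 and 3.55e-07). Between the cocultures 2 of the 21 genes were higher and 5 lower with WT ILC2s, but the higher count was 0 without WT coculture 1 or 4 or any 1 of the IL13KO cocultures. The lower count ranged from 3 (without WT coculture 3 or IL13KO coculture 2) to 7.

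The suppressors of cytokine signalling through which TAM receptors damp inflammation were higher in coculture. Socs1 stood at 15.1 ± 6.12 CPM alone (SD, n = 4), 161.4 ± 12.02 CPM with WT ILC2s and 96.5 ± 9.07 CPM with IL13KO ILC2s (SD, n = 3 each). Socs3 stood at 20.9 ± 6.69, 304.4 ± 68.5 and 351.1 ± 18.5 CPM (SD, n = 4, 3 and 3). Their log2 rises over monoculture were 3.42 ± 0.26 and 2.68 ± 0.26 for Socs1 and 3.87 ± 0.22 and 4.08 ± 0.22 for Socs3 (SE), and 2.12, 1.17, 2.72 and 2.76 after the correction. Both genes are also induced by many cytokines. Twist1, a transcription factor downstream of AXL in macrophages, fell, with log2 differences of -1.97 ± 0.22 and -1.498 ± 0.21 (SE), or -2.65 and -2.28 after the correction. Nr1h3, the sterol receptor LXRα that raises Mertk in macrophages, was at 30.03 ± 1.02 CPM alone (SD, n = 4) and at 8.57 ± 2.09 and 27.0 ± 0.691 CPM in the WT and IL13KO cocultures (SD, n = 3 each), a log2 difference between the cocultures of -1.65 ± 0.17 (SE; edgeR adjusted p = 1.86e-05). Of the 9 genes of this list, 4 rose and 4 fell in WT coculture, 5 rose and 2 fell in IL13KO coculture, and 0 were higher (0 to 1) and 3 lower (1 to 3) in WT than in IL13KO coculture. The IL13KO counts became 3 and 4 after the correction, and the last count became 1 without WT coculture 3 or IL13KO coculture 1.

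Gas6 belongs by its name to the growth-arrest-specific transcripts, and the 7 others tested moved in both directions. In each coculture 3 rose and 2 fell against monoculture, where 32.8% and 30.1% of all genes rose and 29.7% and 27.3% fell. Of these 7, 1 was higher and 2 lower (1 to 2) in WT than in IL13KO coculture. Gas5, a noncoding host transcript of small nucleolar RNAs, fell from 372.5 ± 28.6 CPM (SD, n = 4) to 76.2 ± 17.2 and 133.6 ± 8.92 CPM (SD, n = 3 each), and was lower in WT than in IL13KO coculture by 0.81 ± 0.14 on the log2 scale (SE; edgeR adjusted p = 0.00136). Gas2l3, a cytoskeletal linker of dividing cells, had 4.77 ± 0.824, 22.02 ± 2.46 and 7.89 ± 0.861 CPM (SD, n = 4, 3 and 3), a log2 difference of 1.48 ± 0.18 between the cocultures (SE; edgeR adjusted p = 9.35e-05). All 16 proliferation genes tested were higher in WT than in IL13KO coculture, among them Mcm6, a subunit of the replicative helicase, by 1.37 ± 0.13, and Birc5, which encodes survivin, by 1.78 ± 0.16 (SE; edgeR adjusted p = 1.39e-05 and 7.89e-06). In WT coculture against monoculture 15 of them rose and 0 fell, and in IL13KO coculture 12 rose and 1 fell. The part of cell division in the level of Gas6 was not tested.

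**Figure D5:**
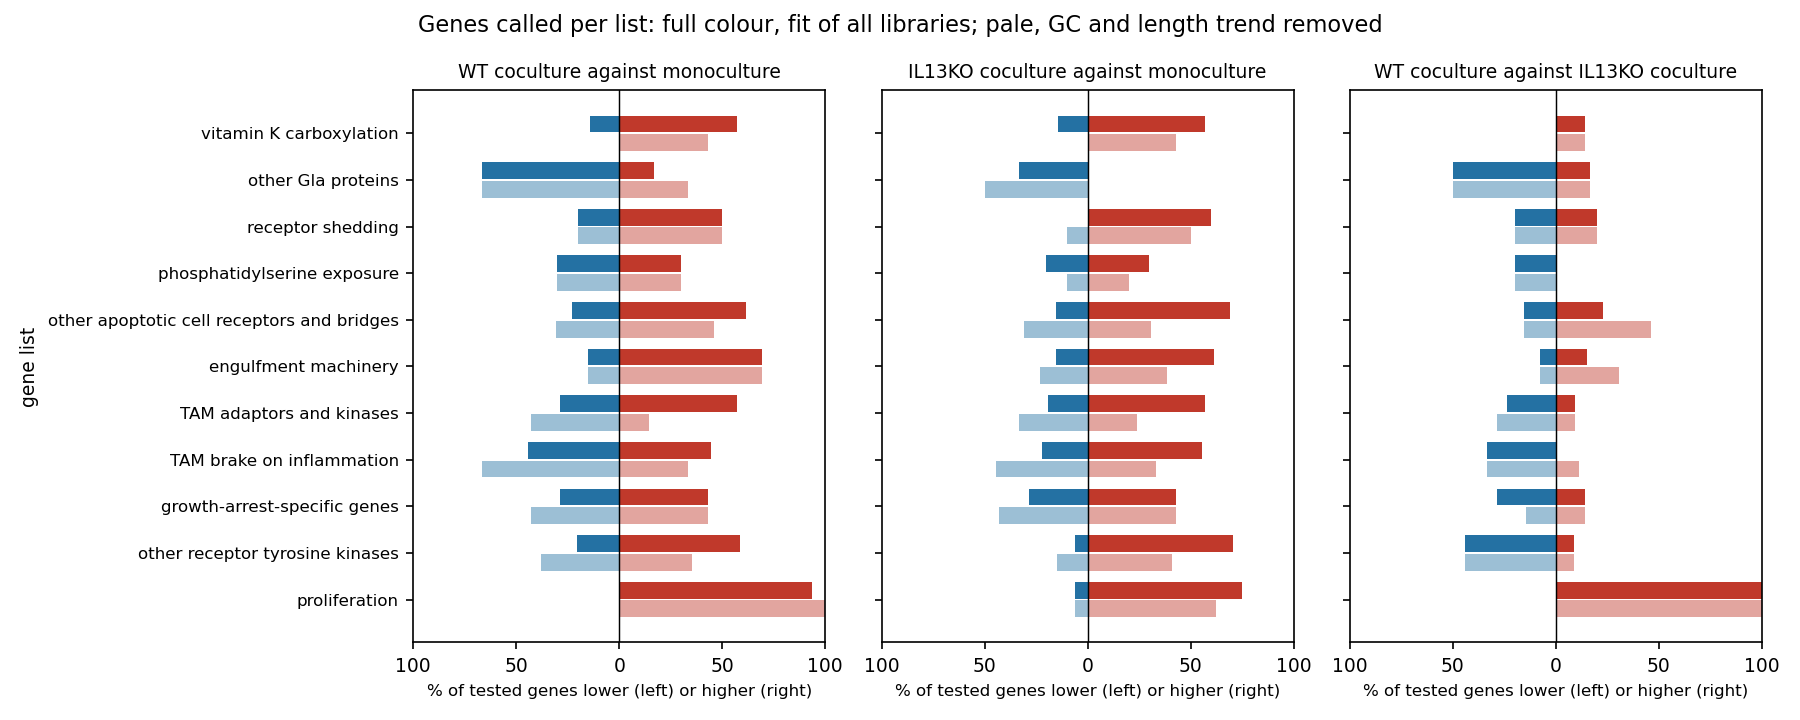
Share of the tested genes of each list that were called lower (left, blue) or higher (right, red) in each comparison, with the fit of all libraries in full colour and the counts after the GC and length correction in pale colour. Lists of adaptors and receptor tyrosine kinases change sides between the fits in the WT coculture against monoculture. So do all genes tested there, from 5355 higher and 4857 lower to 4123 and 5526. All 16 proliferation genes are higher in WT than in IL13KO coculture.

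The genes whose levels were most like those of each member over the 10 libraries were ranked by the root mean square difference of their centred log2 CPM, among 9063 genes. For Gas6 they were Tmem255b at 0.131, Gdf10 at 0.131 and Ggt5 at 0.229. Tmem255b, whose exons overlap those of Gas6 on the opposite strand, had 31.4, 17.7 and 72.02 CPM as means alone, with WT and with IL13KO ILC2s. Whether reads were counted by strand is not given in the sources used here, so reads from the shared exon bases (2.15% of those of Tmem255b) cannot be told apart. Gdf10, a growth factor of the BMP family, had 98.7, 61.8 and 239.2 CPM. Its rise with IL13KO ILC2s, 1.28 on the log2 scale (edgeR adjusted p = 9.73e-05), was 0.27 after the GC and length correction (edgeR adjusted p = 0.101). For Axl the nearest genes were Casc3, Cdk16 and Ptgir at 0.112, 0.118 and 0.151, and for Pros1 they were Atf2, Zbtb1 and Csgalnact2 at 0.0977, 0.101 and 0.101. For Tyro3 (Lamb2 and Lrp11) and Mertk (Mfge8, Lgals3bp and C1rb) the nearest genes were much farther, at 0.398 to 0.411 and 0.459 to 0.467.

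Since macrophages and dendritic cells also carry AXL and MERTK, markers of other cells were set beside these levels. Of 15 macrophage markers 7 were in the table, and their summed level was 68.1 to 74.8 CPM alone, 22.3 to 24.1 CPM with WT ILC2s and 42.7 to 48.8 CPM in IL13KO cocultures. Lyz2 gave most of this in the monocultures, with mean levels of 53.4 ± 1.97 CPM alone (SD, n = 4), 2.85 ± 0.581 CPM with WT ILC2s and 23.8 ± 1.23 CPM with IL13KO ILC2s (SD, n = 3 each). Csf1r, the receptor for a macrophage growth factor, had 8.999 ± 1.73, 12.9 ± 1.88 and 12.2 ± 0.945 CPM (SD, n = 4, 3 and 3). Adgre1, which defines mouse macrophages, had 0 reads in the monocultures, 0, 0 and 4 in the WT cocultures and 0, 0 and 1 in the IL13KO cocultures. The 3 dendritic cell markers in the table, of 8, summed to 1.06 to 4.70 CPM alone, 6.79 to 9.51 CPM with WT ILC2s and 6.99 to 7.88 CPM with IL13KO ILC2s. The 8 leukocyte markers summed to 2.89 to 6.61, 95.4 to 119.7 and 14.1 to 22.1 CPM. Cd53 gave most of these reads in the WT cocultures (2059, 2084 and 2073), and Ptprc, Laptm5, Cd48 and Rac2 were at 0 in every monoculture. The 13 ILC2 markers in the table, of 14, summed to 182.9 to 240.7, 1681 to 1908 and 316.8 to 358.7 CPM. Thy1, which is also among the fibroblast markers, and Rora gave most of this sum alone and with IL13KO ILC2s. Their means were 135.7 and 63.7 CPM alone and 254.9 and 55.25 CPM with IL13KO ILC2s. Il1rl1, the interleukin 33 receptor, held 28232, 28200 and 21967 reads in the WT cocultures and at most 332 elsewhere. Il5, a cytokine of ILC2s, held 80, 265 and 371 reads with WT ILC2s, 30, 64 and 12 with IL13KO ILC2s and 0 alone. Gata3, the lineage factor of ILC2s, held 95, 110 and 95 reads, then 45, 65 and 32, against 8 to 31 alone, and Il2ra held 15, 45 and 42 reads, then 9, 74 and 4, against 0 to 1 alone. Il7r, another defining gene, held 0, 0 and 5 reads in the WT cocultures and 0 elsewhere. Mural cell markers, 8 of 8 in the table, summed to 1140 to 1359, 697.6 to 950 and 814.8 to 1142 CPM, most of it from Acta2, the smooth muscle actin. Of the 7 tested, 5 were lower and 0 higher in WT than in IL13KO coculture, the direction of Gas6 in that comparison. Of all genes tested 11.7% were called lower there. Rgs5, which marks pericytes, had 51.4 ± 12.3 CPM alone (SD, n = 4), 8.54 ± 1.63 CPM with WT ILC2s and 57.7 ± 10.6 CPM with IL13KO ILC2s (SD, n = 3 each). Its log2 difference between the cocultures was -2.75 ± 0.22 (SE; edgeR adjusted p = 3.28e-06), and those of Kcnj8, Abcc9 and Notch3 were -3.13 ± 0.30, -1.41 ± 0.28 and -1.34 ± 0.29 (SE; edgeR adjusted p = 1.35e-05, 0.00285 and 0.00555). With a block by the column numbers Notch3 was -1.17 (edgeR adjusted p = 0.0574). Acta2 (-0.19 ± 0.15) and Mcam (-0.82 ± 0.45) were not called between the cocultures (edgeR adjusted p = 0.381 and 0.210). Against monoculture, Gas6 was 1.26 with IL13KO ILC2s. There Rgs5, Kcnj8, Abcc9, Acta2 and Mcam were 0.17, -0.14, 0.20, -0.40 and -0.83, and Des and Notch3 1.115 and 1.575. The marker genes named singly here were chosen after their values were seen. The part of other cells in the levels of the TAM genes was not tested.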

How the data were processed

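RNA was sequenced as paired reads of 50 nt after a low-input library preparation, per the labels' protocols. The authors deposited counts per gene as whole numbers. Per the submitters' processing notes, the tools were STAR 2.7.7a and Salmon 1.6.0, with Trimmomatic 0.39, FastQC 0.11.9, DESeq2 and Picard, on GRCm38.p6. Which tool counted, with which annotation and on which strand, is not given in the sources used here. A second, normalised table was not used.

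From the deposited counts, genes were kept by filterByExpr (16344), TMM-normalised and fitted over all 10 libraries with edgeR 4.0.16 (R 4.3.3, limma 3.58.1) by the quasi-likelihood test with 1 coefficient per group. P-values were Benjamini-Hochberg adjusted over all genes tested, and a gene was called below 0.05. "Rose" and "fell" refer to called genes. Symbols and exon lengths came from GENCODE. Promoter windows came from RefSeq (GRCm38.p6), where 5 of 5 members matched. The model was tested on simulated data. For the GC and length correction, trends were removed per library by loess (span 0.4) over the 16313 tested genes with both values. Replicate libraries differed beyond sampling noise. A count of 3 reads was taken as the floor, and it covers counting error only.

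The members and lists were chosen with earlier results of these data known. The naming rule covers the members, up to 4 genes per list and comparison with the smallest adjusted p, the most abundant receptor kinases, and 3 nearest genes per member. Some genes it names are not reported here. Calls of named genes that ended without 1 library are given in the counts only. Vkorc1, Adam17 and Xkr8 and the markers named were added after their values were seen. Alternatives were upper-quartile and DESeq2 size factors, limma-voom, DESeq2 1.42.0, no filter or 1 CPM in 3 libraries, the compared groups alone, replicate blocks, the GC and length correction, thinning to equal depth and leaving out each library.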

Additional observations from a re-analysis of the deposited data

Results flagged for a closer look

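Axl in monoculture 3 stood apart from the other monocultures. Its level there was 103.3 CPM, against 67.5 to 72.9 CPM in the other three, and the gap to the nearest of them was 0.85 of the range of the group, above Dixon's critical value for a group of 4. The 5 members were each examined in the 4 monocultures, and 1 was marked in this way. About 1 in 20 groups is marked by chance. The library lay far below every coculture, the lowest of which had 341.8 CPM.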

How the results depend on the processing

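Gas6 and Axl kept their direction and call in every alternative run, except that the rise of Gas6 with IL13KO ILC2s was 0.24 (edgeR adjusted p = 0.0607) after the GC and length correction, and that the difference of Axl between the cocultures, never called, was -0.015 in limma-voom and -0.23 without WT coculture 1 (range without 1 library -0.23 to 0.29). For Tyro3 in WT coculture the log2 difference was 0.995 with upper-quartile size factors, 1.12 with only the groups compared, 0.95 with the block by column numbers, 1.06 after thinning and -0.17 after the correction, with edgeR adjusted p-values of 0.0634, 0.0793, 0.0828, 0.0559 and 0.752. Without 1 library it was 0.67 to 1.36. In IL13KO coculture Tyro3 was 0.21 after the correction. Pros1 in IL13KO coculture, never called, was 0.12 after the correction and -0.17 to 0.03 without 1 library, above 0 without monoculture 1 (0.0080) or IL13KO coculture 3 (0.027). Pros1 between the cocultures was -0.57 to -0.37 without 1 library. Mertk was -2.41 to -0.75 in WT coculture, 0.14 to 0.93 in IL13KO coculture and -2.92 to -1.26 between the cocultures without 1 library, -1.98 between the cocultures in limma-voom (adjusted p = 0.0449), and -0.23, 0.82 and -1.06 in the 3 comparisons after thinning. The cause was not tested in any of these. The filter of 1 CPM in 3 libraries left Mertk out, so it has no value there. Mertk also has no value in either comparison against monoculture when only the groups compared were fitted. Over all genes, 3810 were called between the cocultures, 5806 with only the groups compared and 2124 with the block by column numbers. Without 1 library there were 2337 to 4814 (2523 without WT coculture 4, 2482 without IL13KO coculture 1 and 2337 without IL13KO coculture 2). In WT and IL13KO coculture against monoculture 10212 and 9384 genes were called, with 9070 to 10459 and 7891 to 9727 without 1 library. Upper-quartile size factors moved the median of all genes by -0.12 and -0.10 on the log2 scale in those comparisons, and the correction by -0.09 and -0.11. Deviations from the group means correlated at -0.13 to 0.028 for same-numbered libraries and at -0.15 to 0.14 for differently numbered ones. With so few libraries per group, whose deviations depend on each other, this cannot tell whether the replicate numbers pair the libraries. A replicate block by the label numbers could be fitted only for IL13KO coculture against monoculture. It left out Mertk and changed no call of the other members there. The block by column numbers was chosen after seeing the data. It ended the call of Tyro3 in WT coculture and no other call of a member. Of the differences of other genes, 84 were fitted under the alternatives. Of their calls 2 ended, that of Gdf10 after the correction and that of Notch3 with the block by column numbers. Depth limits Mertk most, with 2 to 20 reads per library.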
